A study of Mus musculus with 3 samples.

Results

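The NK and cytotoxic effector genes described here are 10 mouse genes, Ccl5, Klrd1, Klre1, Gzma, Gzmb, Prf1, Nkg7, Ncr1, Cd8a and Cd8b1. They were taken by gene symbol and were read by 15 probe sets, out of 18193 genes and 34945 probe sets with 1 gene symbol. Their signals were compared on 3 microarrays of C57BL/6 mouse cells, with 1 array per population. ES cells, line B6N-22, were cultured with leukemia inhibitory factor over embryonic fibroblasts treated with mitomycin C. B220 B cells and CD4 T cells were both taken from spleens of mice aged 6 to 8 weeks by magnetic bead sorting, with a stated purity above 98%. None of the groups carried a stated genetic change or drug treatment. B220 is a form of the leukocyte phosphatase CD45 that, besides B cells, plasmacytoid dendritic cells and some NK cells can carry, and CD4 is also found on some dendritic cells and NKT cells. The sources used here do not say whether the sorts kept or removed bead-bound cells, how many mice were pooled, or whether RNA of feeder cells was left in the ES sample.

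Natural killer (NK) cells and cytotoxic CD8 T cells kill by releasing granules onto a target cell. Perforin opens the target membrane and granzymes, a family of serine proteases, enter and start cell death. NK cells are steered by germline-encoded receptors, many of them lectin-like proteins encoded together in the NK gene complex, while CD8 T cells use the T cell receptor with the CD8 coreceptor. Resting CD4 T cells and B cells are not classical cytotoxic cells, although effector and memory CD4 T cells can express some of these genes.

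The promoters of 4 members are shown because the pairs move in opposite directions between the lymphocyte arrays: Nkg7 and Prf1 were brighter in CD4 T cells, and Gzma and Ncr1 in B220 B cells. Sequences are RefSeq's for build GRCm38.p6, run from 250 bases before to 50 bases after the gene's start, and read 5′ to 3′ on the gene's strand. They lie at chr7:43436888-43437187 (+ strand) for Nkg7, chr10:61297586-61297885 (+) for Prf1, chr13:113100932-113101231 (- strand) for Gzma and chr7:4337465-4337764 (+) for Ncr1, the first of its 2 listed starts. Capitals mark, on either strand, the letters TGTGGT (core of Runx sites), TCACAC (T-box sites) and AGGAAG (Ets sites).
Nkg7: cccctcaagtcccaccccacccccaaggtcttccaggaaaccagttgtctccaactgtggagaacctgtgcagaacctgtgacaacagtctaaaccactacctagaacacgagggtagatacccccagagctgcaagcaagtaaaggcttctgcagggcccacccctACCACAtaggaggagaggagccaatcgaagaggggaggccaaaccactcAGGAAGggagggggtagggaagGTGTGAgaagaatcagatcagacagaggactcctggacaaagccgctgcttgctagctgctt
Prf1: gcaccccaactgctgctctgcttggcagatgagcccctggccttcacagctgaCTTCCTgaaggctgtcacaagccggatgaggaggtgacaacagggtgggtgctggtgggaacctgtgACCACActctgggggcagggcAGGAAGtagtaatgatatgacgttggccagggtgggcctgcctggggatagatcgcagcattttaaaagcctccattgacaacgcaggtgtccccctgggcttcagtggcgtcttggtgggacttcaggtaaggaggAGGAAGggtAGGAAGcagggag
Gzma: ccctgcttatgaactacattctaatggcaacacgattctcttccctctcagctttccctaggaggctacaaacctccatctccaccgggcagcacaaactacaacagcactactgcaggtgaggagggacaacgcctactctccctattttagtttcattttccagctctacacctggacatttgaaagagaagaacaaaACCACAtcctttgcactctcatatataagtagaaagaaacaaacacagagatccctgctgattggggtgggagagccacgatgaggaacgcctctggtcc
Ncr1: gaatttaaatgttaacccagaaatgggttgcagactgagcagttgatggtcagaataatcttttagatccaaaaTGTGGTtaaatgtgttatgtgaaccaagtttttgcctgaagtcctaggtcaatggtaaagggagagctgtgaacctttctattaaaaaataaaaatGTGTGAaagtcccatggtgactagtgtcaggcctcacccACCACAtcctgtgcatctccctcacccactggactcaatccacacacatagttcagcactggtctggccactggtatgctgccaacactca
Runx letters occurred in all 4 windows, 2 times in that of Ncr1 and 1 time in each of the others. T-box letters occurred 1 time in Nkg7 and 1 time in Ncr1, and Ets letters 4 times in Prf1 and 1 time in Nkg7. Of 32851 promoter windows of the same length in the RefSeq table, 16.8% held the Runx letters, 14.5% the T-box letters and 35.4% the Ets letters. None of the marked stretches overlapped another. A match to such short letters is a description of the sequence, and the table held windows for 7 of the 10 members, with Ccl5, Klrd1 and Cd8b1 not among them. Of the windows not shown, that of Cd8a held none of the letters. Klre1, by the first of its 2 listed starts, held Runx letters 1 time and T-box letters 1 time, and Gzmb 2 times and 1 time. The motifs and the windows shown were chosen after the values were seen.

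The ES cell array gave these genes no signal above the detection level on the brightest probe set of any member. That level was a signal of 95.0, the 50th percentile of all values on the 3 arrays. In contrast, all 10 members exceeded it in B220 B cells and 9 of 10 in CD4 T cells, Ncr1 being the exception. Over all 18193 genes the shares above it were 60.3%, 57.8% and 56.8% in ES, B and T cells. Of the 15 probe sets, 1 passed the level in the ES array, 14 in the B cell array and 13 in the T cell array. The plot of member signals shows the 3 arrays side by side.

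**Figure D1:**
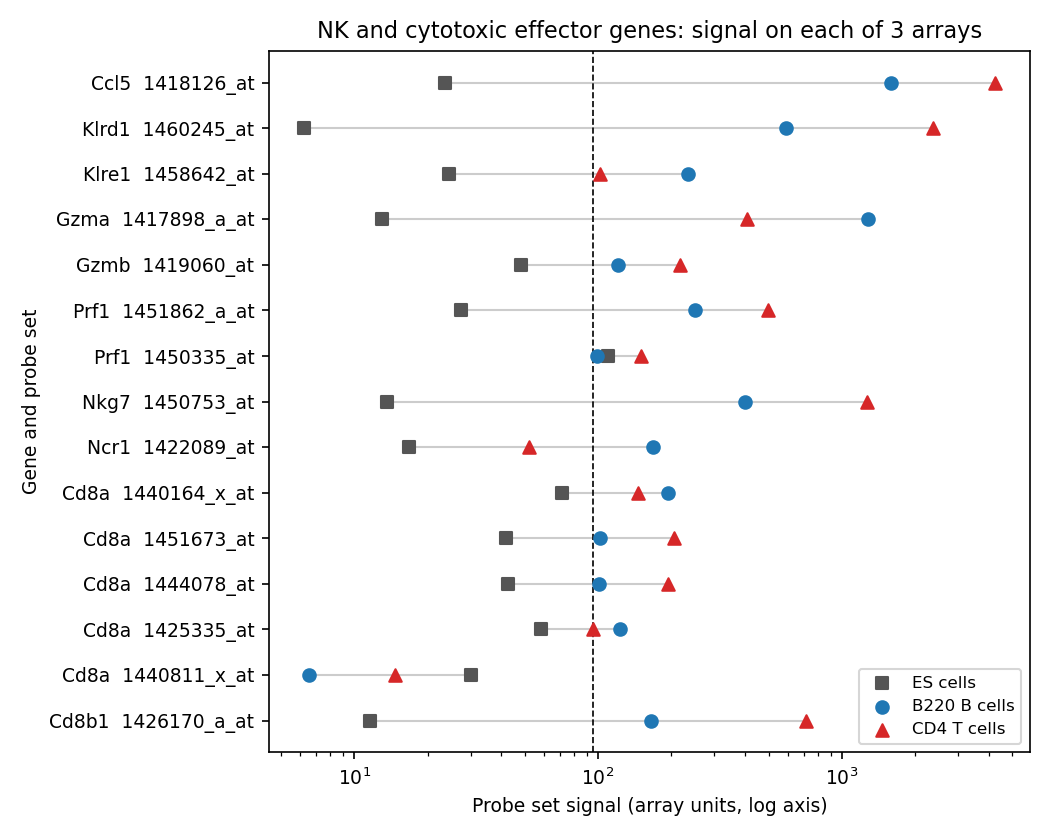
Signal of each of the 15 probe sets (rows) on the arrays of ES cells, B220 B cells and CD4 T cells (log axis, array units), with 1 point per array and the dashed line at the detection level of 95.0. ES cells are the dimmest for 13 of the 15 probe sets, and the order of the lymphocyte arrays differs between genes.

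With 1 array per population differences have no replicate check, and neither tests nor p-values are given. Signals were raised to the detection level before the log2 was taken, so a fold against a dimmer array below the level is a lower bound, written "at least". As a yardstick, the log2 differences from a gene's 2 brightest probe sets were set against each other. Between T and B cells they disagreed by a median of 0.30 and, at the 90th percentile, 0.87 over 5329 genes, which covers probe effects and neither animals nor cultures. Differences were taken within a probe set across arrays. Signals of different probe sets were used only to choose a gene's probe set, to order members by brightness and in the sums of marker lists, and they do not show which gene has more mRNA.

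The labels were checked against marker genes. All 9 ES cell markers passed the detection level in ES cells, all 8 B cell markers in B cells and 10 of 11 CD4 T cell markers in T cells, Cd40lg being the one below. Cd4 had signals of 11.0 in ES, 19.7 in B and 834.2 in T cells. On the ES cell array all 9 embryonic fibroblast markers also passed the detection level, with a summed signal of 82169.0. The ES cell markers summed to 106717.1 there. How much of the fibroblast marker signal came from feeder cells was not tested. The lymphocyte arrays also held markers of other cells. All 11 macrophage markers were above the detection level in both, with a summed signal of 27709.2 in B cells and 66813.1 in T cells. B cell markers summed to 103957.3 in B cells and 4611.5 in T cells, and CD4 T cell markers to 1531.4 and 61964.9.

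Killing genes come first, beginning with the pore. Prf1, which encodes perforin, had signals of 27.3 in ES, 249.2 in B and 498.4 in T cells on its brighter probe set, 1451862_a_at. T cells were 2.00-fold above B cells on it and at least 5.25-fold above ES cells. The dimmer probe set, 1450335_at, gave 109.4, 99.3 and 149.7 in the same order. There the 3 arrays lay close together near the detection level, with T cells 1.51-fold above B cells and 1.37-fold above ES cells, and B cells 1.10-fold below ES cells.

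The granzymes did not share a direction. Gzma, a granzyme with trypsin-like specificity, had signals of 13.0 in ES, 1279.4 in B and 409.8 in T cells. The B cell array was the brightest, 3.12-fold above T cells and at least 13.5-fold above ES cells, and T cells were at least 4.31-fold above ES cells. Of 11194 genes measured in the lymphocyte comparison, 2.64% had a difference further toward B cells than that of Gzma. Gzmb, the granzyme that cleaves after aspartate, had signals of 48.3, 121.1 and 215.9 in ES, B and T cells. T cells were 1.78-fold above B cells, a log2 difference of 0.83 that is within the 90th percentile of probe set disagreement.

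Nkg7, a membrane protein of cytotoxic granules, had signals of 13.6 in ES, 400.7 in B and 1272.4 in T cells. T cells were 3.18-fold above B cells and at least 13.4-fold above ES cells, and B cells at least 4.22-fold above ES cells. Its direction was thus that of Prf1 and opposite to that of Gzma.

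The chemokine gene Ccl5, stored and released by effector T cells and NK cells, was far above its ES cell signal on both lymphocyte arrays. Its signals were 23.6 in ES, 1582.2 in B and 4249.5 in T cells. T cells were at least 44.7-fold and B cells at least 16.7-fold above ES cells, and T cells were 2.69-fold above B cells. Among all measured genes 5.23% had a greater excess in T cells over B cells.

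The NK receptor genes split between the lymphocyte arrays. Klrd1 encodes CD94, which pairs with NKG2 chains to read the nonclassical MHC molecule Qa-1 in the mouse. Its signals were 6.2 in ES, 590.2 in B and 2355.0 in T cells. T cells were 3.99-fold above B cells, just short of the 4-fold used for counting, and at least 24.8-fold above ES cells. B cells were at least 6.21-fold above ES cells.

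Klre1, another lectin-like receptor of NK cells, went the other way. Its signals were 24.5 in ES, 234.5 in B and 101.9 in T cells, the last just above the detection level. B cells were 2.30-fold above T cells and at least 2.47-fold above ES cells. Klre1 and Klrd1 are neighbours on chromosome 6, with 0 coding genes between them in the RefSeq gene table, and they were brightest on different arrays.

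Ncr1 encodes NKp46, an activating receptor that in the mouse is largely restricted to NK cells and some innate lymphoid cells. Its signals were 16.8 in ES, 168.3 in B and 51.9 in T cells, so it was below the detection level in both ES and T cells. B cells were at least 1.77-fold above each of them, a log2 difference of at least 0.83. As a lower bound, it cannot be placed inside or outside the 0.87 of probe set disagreement between T and B cells. For T cells minus B cells, raising signals only to 46.1 gave -1.70 for Ncr1. Adding 16 with no floor gave -1.44. Quantile normalization and scaling to the 75th percentile, which kept a floor, gave -0.75 and -0.70.

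The CD8 coreceptor genes Cd8a and Cd8b1 are also neighbours on chromosome 6, with 0 coding genes between them. Cd8b1, the beta chain, which is found on conventional CD8 T cells, had signals of 11.6 in ES, 165.5 in B and 715.6 in T cells. T cells were 4.32-fold above B cells and at least 7.53-fold above ES cells, and B cells at least 1.74-fold above ES cells.

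Cd8a encodes the alpha chain, which in the mouse is also carried by a subset of splenic dendritic cells, and its 5 probe sets did not give 1 order. The brightest, 1440164_x_at, gave 71.3 in ES, 193.2 in B and 145.4 in T cells, with B cells 1.33-fold above T cells. The x in such a name marks probes that can also bind other transcripts. Probe set 1451673_at gave 41.9, 102.3 and 204.7, and 1444078_at gave 42.9, 101.0 and 192.8. On these the T cells were 2.00-fold and 1.91-fold above the B cells. Probe set 1425335_at gave 58.2, 122.9 and 95.3, with B cells 1.29-fold above T cells, and 1440811_x_at was at 30.2 or below on all arrays. The order of T and B cells for Cd8a therefore depends on the probe set, and its highest signal was 2.15-fold the detection level.

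Counted by the brightest probe set, 6 of 9 measured members exceeded ES cells by 4-fold or more in the T cell array, beside 10.8% of 12325 measured genes. These were Ccl5, Klrd1, Nkg7, Cd8b1, Prf1 and Gzma, and 0 members were lower, beside 10.2%. At 2-fold 7 were higher, Gzmb being the addition, beside 22.7% of genes. The median log2 difference of the members was 2.39 and that of all measured genes -0.11. For B cells against ES cells, 4 of 10 members reached 4-fold upward, beside 9.85% of 12463 genes. These were Ccl5, Gzma, Klrd1 and Nkg7, and 0 were lower, beside 10.3%. At 2-fold 7 were higher, beside 21.1% of genes, with Klre1, Prf1 and Cd8a added. The medians were 1.35 for the members and -0.07 for all genes. Every member was below the detection level in ES cells, so these folds and the members' medians are bounds, and a gene entered the count only through its lymphocyte signal. Both comparisons use the same ES cell array.

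Between the lymphocyte arrays, 1 of 10 members, Cd8b1, reached 4-fold toward T cells, beside 2.49% of 11194 measured genes, and 0 did so toward B cells, beside 1.85%. At 2-fold, 5 members were higher in T cells, beside 8.89% of genes, namely Cd8b1, Klrd1, Nkg7, Ccl5 and Prf1. At 2-fold 2 members were lower in T cells, Gzma and Klre1, beside 6.32%. The log2 differences ran from -1.64 for Gzma to 2.11 for Cd8b1, with 6 above 0, 4 below 0 and a median of 0.92, against -0.05 for all genes. Prf1 stood exactly at the 2-fold threshold, where 1451862_a_at had 498.4 against 249.2. The members were thus found on both sides of equality, with Gzma, Klre1, Ncr1 and Cd8a on the B cell side by their brightest probe sets.

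**Figure D2:**
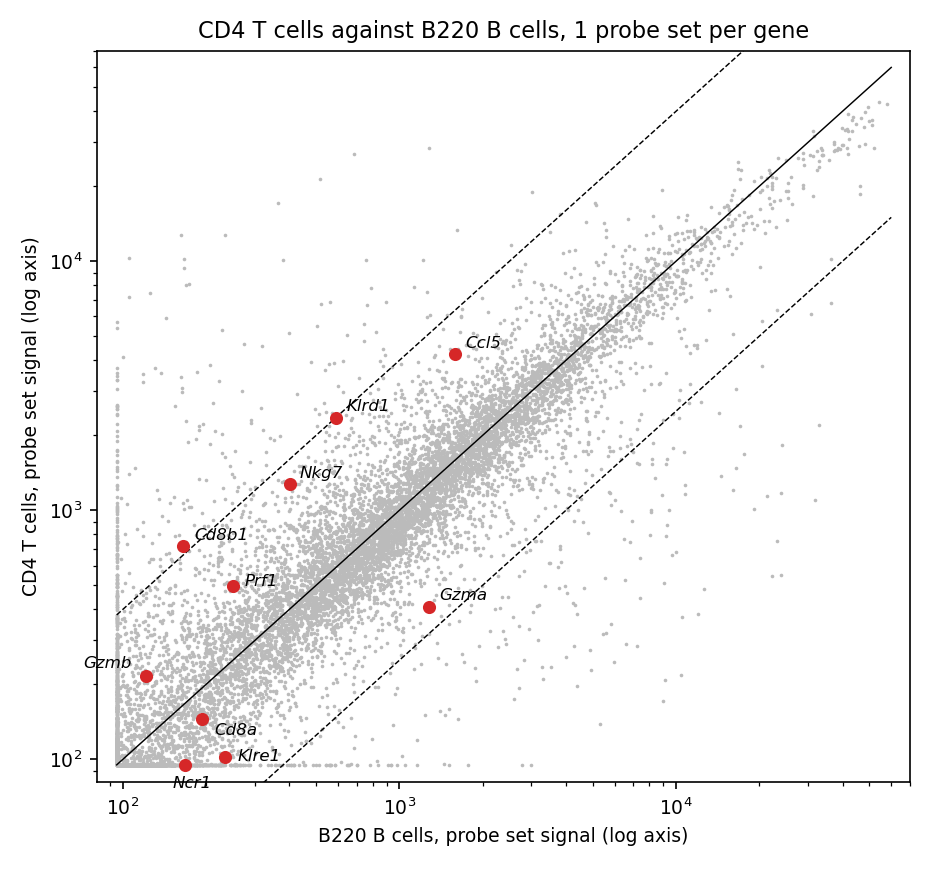
Signal in CD4 T cells (vertical) against B220 B cells (horizontal) for 11194 measured genes, 1 probe set per gene, on log axes, with values below 95.0 drawn at that level. Red points are the 10 members, the solid line is equality and the dashed lines are 4-fold. Cd8b1 lies just above the upper dashed line, with Klrd1 at 3.99-fold, while Gzma, Klre1, Ncr1 and Cd8a lie below equality.

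Markers of the cells that normally express these genes were set beside this split. Of 12 NK cell markers with a probe set, 5 of them members, 10 were above the detection level in B cells and 8 in T cells. Their summed signal was 8218.0 in B cells, 13129.6 in T cells and 872.0 in ES cells. The adaptor gene Tyrobp made up 4336.2 of the B cell sum and 7446.5 of the T cell sum. Of 11 measured between the lymphocytes 3 leaned 2-fold or more toward T cells, namely Klrd1, Prf1 and Il2rb. Toward B cells 4 did, namely Klre1, Gzma, Klra7 and Klra8. Klrd1, Prf1, Klre1 and Gzma are members, so this split in large part repeats that of the members. Among markers outside the members, Il2rb was at least 11.9-fold brighter on the T cell array, at 1132.7 against 77.6. Tyrobp, Klrk1 and Eomes were also brighter there, by 1.72-fold, 1.58-fold and 1.41-fold. Going the other way, Klra7 and Klra8, Ly49 receptor genes of NK cells, had equal signals of 253.6 in B cells. These 2 genes were below the detection level in T cells, at 12.6 and 38.6. Both were taken from x probe sets and belong to a family of near-identical genes, so these may not be separate measurements, and they were named after their values were seen. The NK integrin gene Itga2 was below the level in both lymphocyte arrays, at 66.8 in B cells and 22.5 in T cells.

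Macrophage markers and most measured dendritic cell markers leaned toward the T cell array. Each of the 11 macrophage markers was 2-fold or more above its B cell signal there, beside 8.89% of all measured genes. Their median log2 difference was 1.28, and the members ran from -1.64 for Gzma to 2.11 for Cd8b1. Of 5 measured neutrophil and basophil markers 1 leaned 2-fold or more toward T cells and 0 toward B cells, with a median of 0.28. The 1 was S100a8, at 3966.1 in B cells and 8944.6 in T cells, and S100a9 had 2443.9 and 4451.0. Ngp, Camp and Elane were at 230.8 or below on both arrays. Of 9 measured dendritic cell markers, 7 leaned 2-fold or more toward T cells and 1, Cd24a, toward B cells, and the median was 1.58. The dendritic cell markers summed to 25891.6 in B cells, of which Cd24a made up 24260.9, and to 8167.3 in T cells, with Xcr1 below the detection level in both. The part of these cells in the members' signals was not tested. In bulk samples a change in the number of cells of a type and a change in RNA per cell cannot be told apart. CD8 T cell markers, 2 of them members, summed to 1730.3 in B cells and 23333.9 in T cells, a sum led by the shared T cell gene Cd3d at 17144.4. Of 9 such markers 6 passed the detection level in B cells and 8 in T cells, and Gzmm was below it in both, at 90.1 and 89.0.

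**Figure D3:**
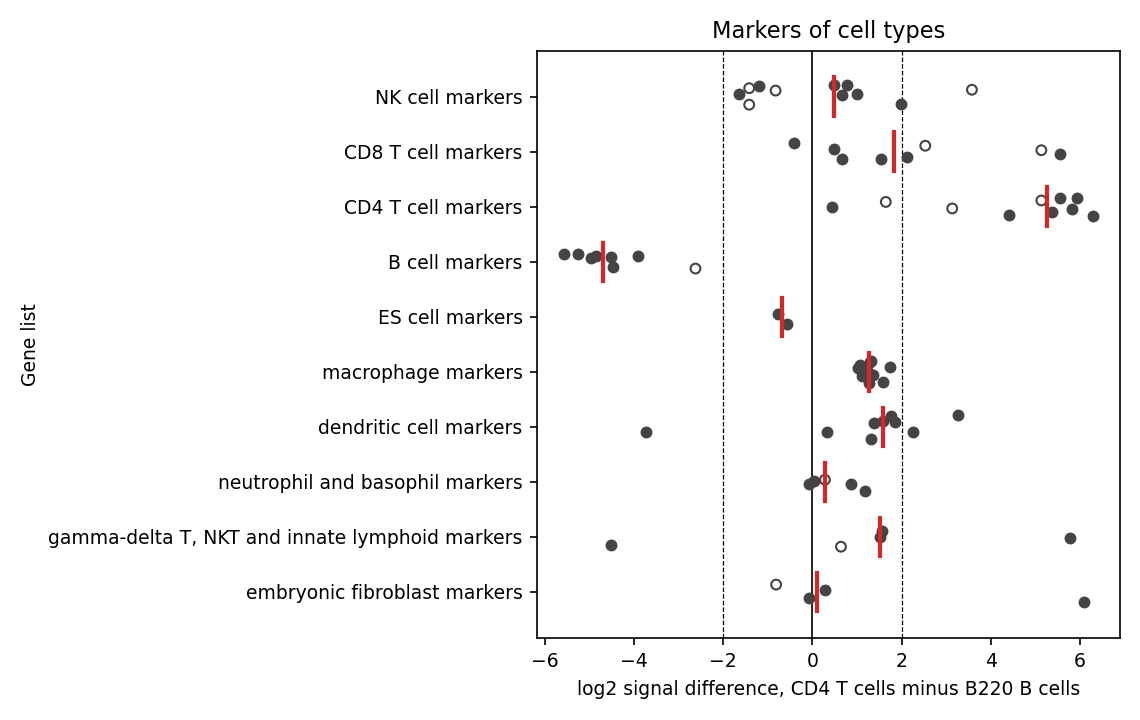
Difference in log2 signal, CD4 T cells minus B220 B cells, for measured genes of 10 cell type marker lists, with 1 point per gene, open points for lower bounds, red bars for medians and dashed lines at 4-fold. NK cell markers, some of them members, fall on both sides of 0, whereas the 11 macrophage markers form a narrow group at a median of 1.28.

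The wider cytotoxic programme was read from 10 lists of pathway genes, members removed, for T cells against B cells. Of 25 listed killer lectin-like receptors 16 had a probe set and 10 were measured. At 4-fold 1 leaned toward T cells and 0 toward B cells, and at 2-fold 3 and 2 did. Klrc1, the NKG2A chain that pairs with Klrd1, had signals of 118.2 in B cells and 457.5 in T cells, a 3.87-fold difference close to the 3.99-fold of Klrd1. The second probe set of Klrc1 gave a log2 difference of 1.17. Klrg1, an inhibitory receptor of mature NK and effector T cells, was 4.40-fold higher in T cells, and Klra17 was 3.29-fold higher. Klrk1, the NKG2D receptor and the coding gene beside Klrd1 on its other flank, had 373.8 in B cells and 589.1 in T cells.

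Of the other granzymes, 1 of 8 was measured. Gzmk, the coding gene next to Gzma on chromosome 13, had signals of 4.3 in ES, 76.7 in B and 548.8 in T cells, at least 5.78-fold higher in T cells. Gzma and its neighbour thus stood on opposite sides. Gzmc, next to Gzmb on chromosome 14, was below the detection level on all 3 arrays, at 28.1, 42.8 and 39.6.

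Granule matrix, activation and inhibitor genes held 2 of 12 that reached 4-fold toward T cells and 0 toward B cells, and their median log2 difference was 0.40. Cst7, an inhibitor of granule cathepsins, was 7.43-fold higher at 1132.6, and Ctsw, a cathepsin of cytotoxic lymphocytes, 5.34-fold higher at 1983.0. Srgn, the proteoglycan that packs granules in many blood cells, had 25382.4 in B cells and 19055.1 in T cells. Ctsc, the protease that activates granzymes, had 11251.4 and 8042.5. The third gene by size, Ctsl, was 2.39-fold higher in T cells, with its other probe set below the detection level in both.

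Of 11 granule exocytosis genes, 1 reached 4-fold toward T cells and 0 toward B cells, around a median of 0.23. Sytl2, a Rab27 effector, was at least 9.47-fold higher, with 899.9 in T cells against 73.0 in B cells. Rab27a, the GTPase that docks granules, was 3.54-fold higher and the syntaxin gene Stx11 3.45-fold, while their least different probe sets gave 0.00 and 0.47 on the log2 scale.

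Among 11 measured effector cytokines, chemokines and death ligands, 4 reached 4-fold toward T cells and 0 toward B cells. Ifng, the macrophage-activating interferon, was 9.06-fold higher, the death ligand genes Fasl and Tnfsf10 7.79-fold and 5.76-fold, and the chemokine gene Xcl1 4.10-fold. One probe set of Tnfsf10 gave 0.00 on the log2 scale. The median over the list was 0.36. Of 3 measured receptor genes for Ccl5, Ccr3 was 4.36-fold higher in T cells at 799.0. The scavenging receptor gene Ackr2 was at least 8.24-fold higher in B cells at 783.2, or -0.67 on the log2 scale by its least different probe set. Ccr1 differed 1.19-fold.

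Effector regulators and cytokine receptors had 6 of 16 at 4-fold or more toward T cells and 0 toward B cells, around a median of 1.46. The interleukin-18 receptor gene Il18r1 was 29.9-fold higher and its partner Il18rap 5.04-fold, though a second probe set gave a log2 difference of 0.58. The chemokine receptor genes Cxcr6 and Cxcr3 were 27.8-fold and 6.76-fold higher. Il2rb, the beta chain for interleukins 2 and 15, was at least 11.9-fold higher, and Id2, an inhibitor of E proteins, 8.30-fold, or 0.80 by its lowest probe set. The T-box genes Tbx21 and Eomes, regulators of cytotoxic genes named outside the naming rule, had 337.6 and 334.8 in B cells and 829.5 and 470.6 in T cells. Eomes also had 419.9 in ES cells.

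Of 7 receptor adaptor genes, 3 reached 4-fold toward T cells and 1 toward B cells, around a median of 1.44. Cd247, the zeta chain shared by the T cell receptor and NK receptors, was 59.5-fold higher, but a further probe set gave a log2 difference of -0.06. Zap70, its kinase, was 19.0-fold higher, with a probe set at -0.97, and the signalling adaptor gene Sh2d1a at least 26.9-fold. Syk, a kinase of the B cell receptor, was 10.2-fold lower. Of 8 measured other NK receptors and adhesion molecules 3 reached 4-fold toward T cells and 0 toward B cells, around a median of 1.55. Cd27 was at least 36.5-fold, Cd96 at least 32.2-fold and Cd7 at least 6.69-fold higher, and all 3 are also T cell genes.

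The last list held factors of the CD4 and CD8 T cell lineages and was given for the Cd8 genes. It was read between T cells and B cells, so it does not compare CD4 with CD8 T cells. Of 11 measured, 5 reached 4-fold toward T cells and 0 toward B cells, around a median of 1.42. Bcl11b was 98.6-fold higher, Lef1 47.5-fold, Tox at least 17.5-fold, Gata3 at least 13.2-fold and Cd4 at least 8.78-fold. Zbtb7b, which encodes the CD4 lineage factor ThPOK, had 280.4 in B cells and 381.7 in T cells, and Runx3, the CD8 lineage factor, 1292.7 and 979.1. Both were named outside the naming rule.

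**Figure D4:**
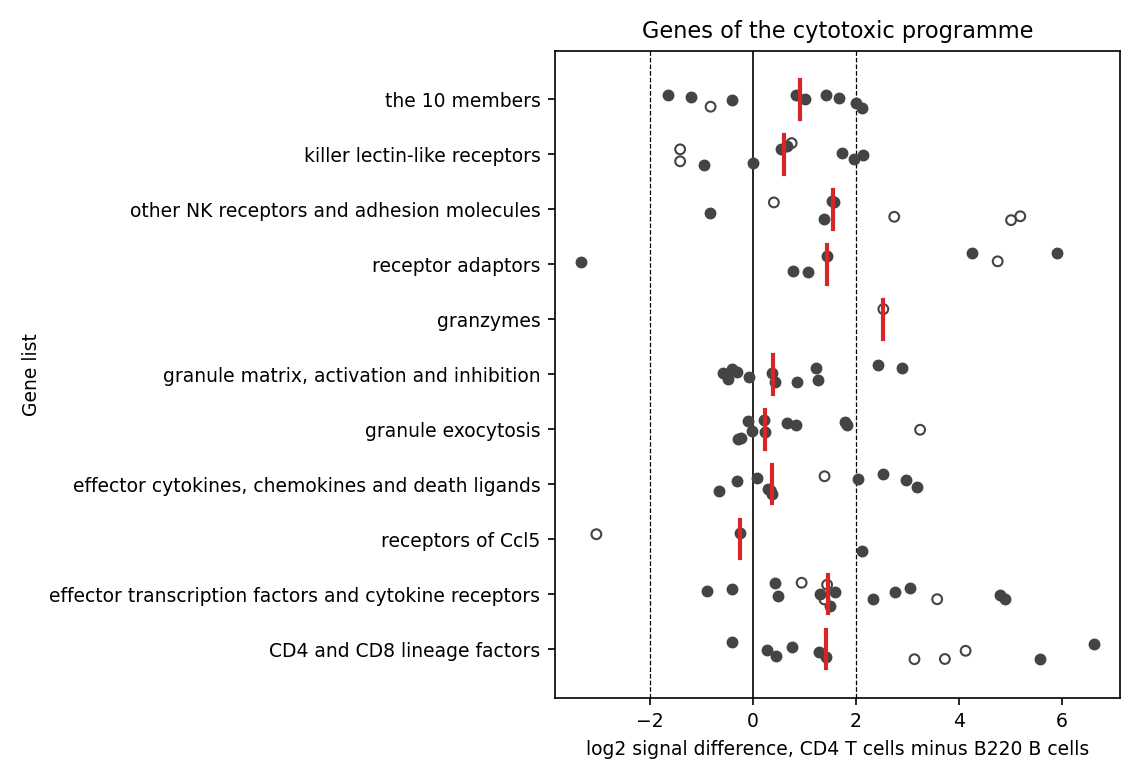
Difference in log2 signal, CD4 T cells minus B220 B cells, for measured genes of the 10 members and of 10 pathway lists, with 1 point per gene, open points for lower bounds, red bars for medians and dashed lines at 4-fold. The members span -1.64 to 2.11, and each of the 10 pathway lists has a gene that lies further toward T cells. The furthest is Bcl11b at 6.62, among the CD4 and CD8 lineage factors.

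The genes of most similar pattern were found for the 3 brightest members by the distance between pairs of log2 differences, T cells minus ES cells and T cells minus B cells, over 3 arrays and 12233 candidate genes. For Ccl5 they were Vcam1 at a distance of 0.07, Gbp7 at 0.13 and Adgre4 at 0.21. Vcam1 had signals of 256.1, 4312.8 and 11112.0 in ES, B and T cells. For Klrd1 they were Dgka at 0.13, Mfsd6 at 0.19 and Ifit2 at 0.21, and Mfsd6 had 93.9, 673.9 and 2355.3. For Gzma they were Prkce at 0.05, Fam111a at 0.15 and Zbtb18 at 0.18, and Prkce had 57.0, 1234.5 and 407.8. The 3 members were below the detection level in ES cells, so their differences from ES cells are lower bounds. Of the genes named, Vcam1, Dgka, Fam111a and Zbtb18 were above that level in ES cells, and for them the distance sets a bound against a measured value. These distances rest on 3 arrays and describe them only.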

How the data were processed

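The authors deposited 1 table of linear intensity values with 45037 probe sets. Affymetrix Expression Console is the tool in the submitters' processing notes. The sources used here do not give its version, the summarization method, the scaling target or the background step. Column medians were 88.8, 101.8 and 97.0 for ES, B and T cells, and the 2% trimmed means 497.3 to 497.8, so a general change in mRNA per cell cannot be seen. Probe sets were named from GEO's platform annotation, and symbols were checked through Entrez IDs against RefSeq's table of GRCm38.p6: 34945 had 1 symbol, 932 several and 9160 none listed. Of the 34945, 34741 were found and 0 symbols changed.

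From these values, log2 differences were taken after raising signals to the detection level of 95.0, with 1 probe set per gene, that of the highest mean over the 3 arrays. A gene counted as measured where either array passed the level, and counted at 4-fold (or 2-fold) or more. No test between populations was run, since each group had 1 array, and the number of arrays limits the precision. The calling steps were tried on simulated data, with known changes set only into genes well above the detection level. That trial does not cover calls of dimmer genes, and several members are dimmer. Python 3.11.15, numpy 2.4.6 and pandas 2.3.3 were used.

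The members, lists, markers, thresholds and promoter motifs were chosen with earlier results of these data known. Genes named from a pathway list were its 3 with the greatest absolute difference of T cells against B cells and any further gene at 4-fold. Of 126 pathway entries 108 had a probe set with 1 symbol. Klrk1, Gzmc, Srgn, Ctsc and the single markers given, as well as the printed motifs and promoters, were chosen after the values were seen. Median log2 differences of T cells against B cells were taken over the measured genes of each marker list. They were 0.28 for neutrophil and basophil genes, 1.52 for gamma-delta T, NKT and innate lymphoid genes and 0.11 for embryonic fibroblast genes. For ES cell genes the median was -0.67, for B cell genes -4.68 and for CD4 T cell genes 5.25. For CD8 T cell genes it was 1.82 and for NK cell genes 0.49. Only 2 of 9 ES cell markers and 4 of 9 embryonic fibroblast markers were measured in this comparison, so their medians do not describe the whole lists. Alternatives were 2 normalizations, no floor, 2 other detection levels, 2 rules for probe sets and a 2-fold threshold.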

Additional observations from a re-analysis of the deposited data

How the results depend on the processing

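No paired analysis was possible because each group had 1 array. Gzma, Klre1 and Ncr1 stayed on the B cell side and Ccl5, Klrd1, Nkg7, Prf1, Gzmb and Cd8b1 on the T cell side in T cells against B cells under each of the 7 planned changes of scaling, floor, detection level and probe set that measured them. Most of this was fixed in advance. A change of floor or detection level cannot reverse a difference within a probe set. Of these genes only Prf1 had more than 1 probe set. For the others only the 2 normalizations could have changed the side. Cd8a alone turned, from -0.41 to 0.23 on the log2 scale with the mean over its probe sets. For Prf1 in B cells against ES cells, the dimmest measured probe set gave -0.14 in place of 1.39. At a detection level of 244.5, the 65th percentile, the 4-fold counts were 3 in place of 6 for T cells against ES cells, 2 in place of 4 for B cells against ES cells and 0 in place of 1 for T cells against B cells. At that level the median for T cells against B cells was 1.49 in place of 0.92, and 1 member in place of 2 was at least 2-fold lower in T cells, since dim signals were raised further or no longer measured. With the level at the 35th percentile, 46.1, the medians were 3.29 in place of 2.39 for T cells and 2.39 in place of 1.35 for B cells against ES cells, since that level sets the bound for members dimmer than it in ES cells. With no floor and 16 added, they were 3.88 and 2.67, and the count for B cells against ES cells was 8. Quantile normalization gave 2 members at 4-fold between T and B cells, and scaling to the 75th percentile put the median of all genes at -0.42 for T cells and -0.37 for B cells against ES cells. At a 2-fold threshold the counts were 7 for B cells against ES cells and 7 for T cells against B cells. The 2-fold counts of T cells against B cells were recomputed as an addition after seeing the data, and that toward T cells was 4 in place of 5 under 5 of 7 changes, since Prf1 stood at the threshold. Members near the detection level, Gzmb, Ncr1, Klre1 and Cd8a, are the least secure.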
